A study of Oryctolagus cuniculus with 18 samples.

Results

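The 165 clones described here are those whose signal was higher in early morulae than in 4-cell rabbit embryos and stayed near that level in expanded blastocysts. They were selected from 2052 clones on the array by the scores that the authors deposited, a value per clone and array that follows the log of the spot intensity. A member had a mean score at least 0.6 higher at the morula stage than at the 4-cell stage, and a blastocyst mean less than 0.6 away from the morula mean, each mean taken over 6 arrays. The stage pattern of the members is therefore given as a description, and the tests below concern measures that the selection did not use. No file used here links a clone ID to a gene, so clones are named by ID, no role can be given for them, and markers of cell types could not be read.

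The rabbit (Oryctolagus cuniculus) embryos had developed in vivo and were collected in pools. Pools of 4-cell embryos were taken 32 h after mating (post coitum), pools of early morulae at 58 h and pools of expanded blastocysts at 90 h, except that blastocyst pool 1 was taken at 96 h. Each stage had 3 pools, from 2 to 7 females each, with 16 to 60 embryos where the labels give the number. The labels name no treatment, genotype or strain for any group. RNA of each pool was amplified once into antisense RNA by in vitro transcription (aRNA) and once by PCR in 2 rounds of 18 cycles. Both products were labelled with 33P and hybridised, which gave 18 arrays. The pool was the unit of replication and its 2 arrays were averaged.

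In the first days after fertilisation a mammalian embryo runs mainly on RNA and protein stored in the egg. Transcription from the embryo's own genome then begins in earnest, while maternal RNA is degraded, and in the rabbit this major activation falls between the 4-cell and morula stages compared here. A transcript that first accumulates then and is still made in the blastocyst, when the inner cell mass and the trophoblast have separated, gives a signal that climbs and then holds. In pools of whole embryos, more cells holding a transcript and more of it per cell cannot be told apart.

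Among clones with a higher morula score, a blastocyst mean within 0.6 of the morula mean was more common than a larger fall. Of the 2052 clones, 269 (13.1%) scored at least 0.6 higher at the morula stage than at the 4-cell stage. The blastocyst mean of 165 of these (61.3%) lay within 0.6 of the morula mean. It was at least 0.6 lower in 96 (35.7%) and at least 0.6 higher in 8 (2.97%). The members thus made up 8.04% of all clones, and 1887 clones lay outside the set. The split depends on the limit, since 111 of the 165 members also scored lower in blastocysts than in morulae.

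**Figure D1:**
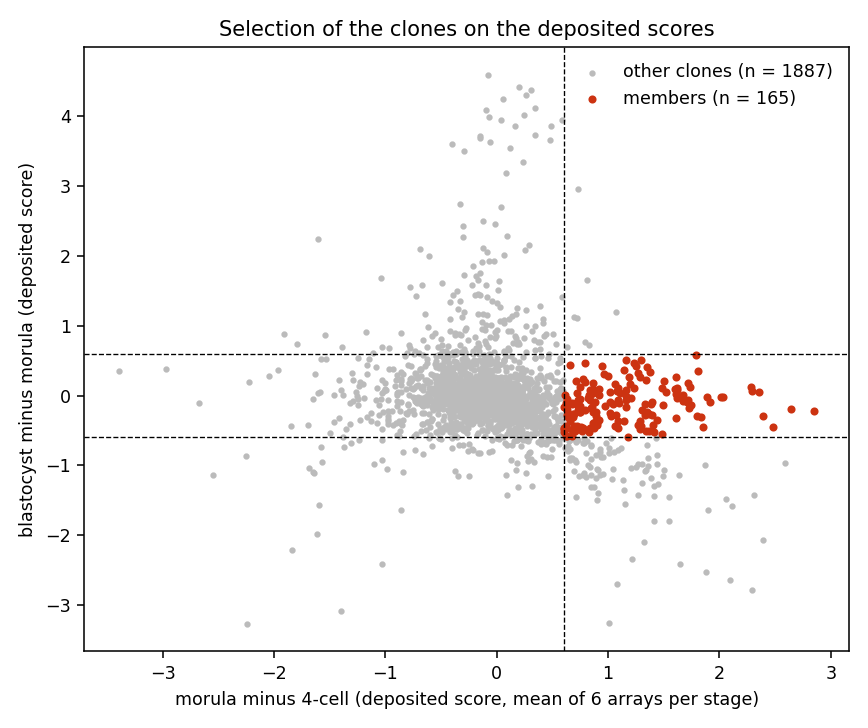
Each point is a clone, placed by its mean score at the morula stage minus that at the 4-cell stage (x axis) and at the blastocyst stage minus that at the morula stage (y axis), in units of the deposited score over 6 arrays per stage. The 165 members (red) fill the region bounded by the dashed lines at the limits of 0.6, the other 1887 clones are grey, and the members thin out toward larger morula differences, the last point lying at 2.85.

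The members came from all over the clone collection. They held 78 of the 1017 clones with the prefix lcao (7.67%), 86 of the 1017 with lcap (8.46%), 1 of the 15 with lcal and 0 of the 3 with lcaq. Clone names share their first 8 letters and digits in 57 groups, and 51 of these groups held a member. The highest share among groups of at least 20 clones was in lcao0049, with 9 of 31 clones (29%), followed by lcap0007 with 9 of 44 (20.5%). What these name groups stand for is not stated in the labels or the files. Every member was spotted once on the array.

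The score difference between morula and 4-cell embryos had a median of 1.06 over the members (interquartile range 0.752 to 1.39), and it ran from 0.601 to 2.85. It exceeded 1 in 88 members and 2 in 9. From morula to blastocyst the median score difference was -0.13 (interquartile range -0.36 to 0.07). The blastocyst mean lay above the morula mean in 54 members and below it in 111, and it was within 0.2 of it in 73. The blastocyst score was still at least 0.6 above the 4-cell score in 117 members and above it by a smaller step in the others, the smallest difference being 0.0393.

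The members nearest the limit of the morula difference were lcao0040b09, at 0.601, and lcap0016e12, at 0.603, while the nearest clones left out were lcao0025f02, at 0.595, and lcao0024b05, at 0.592. At the upper limit of the later change the nearest members were lcao0025g05 (0.576) and lcao0041g07 (0.507), and the nearest clones left out were lcao0029h11 (0.701) and lcap0020h04 (0.725). At the lower limit the nearest members were lcap0010e09 (-0.599) and lcao0047f08 (-0.581), and the nearest clones left out were lcao0025c07 (-0.603) and lcap0008f07 (-0.604). Clones on either side had nearly the same values at the limit of the morula difference and at the lower limit of the later change, while few clones lay near the upper limit.

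A score step does not mean the same intensity ratio on every array. The score changed by 0.689 to 1.04 for each log2 step of raw intensity on the 4-cell arrays, by 0.579 to 0.902 on the morula arrays and by 0.524 to 0.770 on the blastocyst arrays. When the scores were scaled to log2 steps array by array, 108 of the 165 members still met both limits. Levels below are therefore also given as log2 intensities, corrected for background and brought to the same distribution on all arrays of an amplification. On this scale a difference between stages is relative to the other clones. The median member went from a log2 level of 7.18 at the 4-cell stage to 8.50 at the morula stage and 8.26 at the blastocyst stage.

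The median log2 difference between morula and 4-cell embryos was 1.24 over the members (interquartile range 0.88 to 1.72, full range 0.60 to 3.86), against -0.05 over all clones. It was over 1 in 102 members and over 2 in 28. A step of 1 is a doubling of the corrected and normalised value, which holds an offset of 50, and not of the raw spot intensity. Between blastocyst and morula the median was -0.20 (interquartile range -0.46 to 0.05) against -0.07 over all clones. Blastocysts lay below morulae in 118 members, by more than 0.6 in 12. Between blastocyst and 4-cell embryos the median was 1.09 (range 0.03 to 3.17) against -0.08.

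The pools of a stage gave similar medians over the members. The median log2 level of the members was 7.15, 7.31 and 7.16 in the 3 pools of 4-cell embryos. It was 8.51, 8.32 and 8.68 in the morula pools and 8.38, 8.43 and 8.21 in the blastocyst pools. The stages did not overlap in this median between 4-cell embryos and either later stage, whereas morula pool 2 lay below both blastocyst pools 1 and 2. The median SD among the 3 pools was 0.31 for 4-cell embryos, 0.29 for morulae and 0.18 for blastocysts, close to that of all clones (0.31, 0.23 and 0.18).

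**Figure D2:**
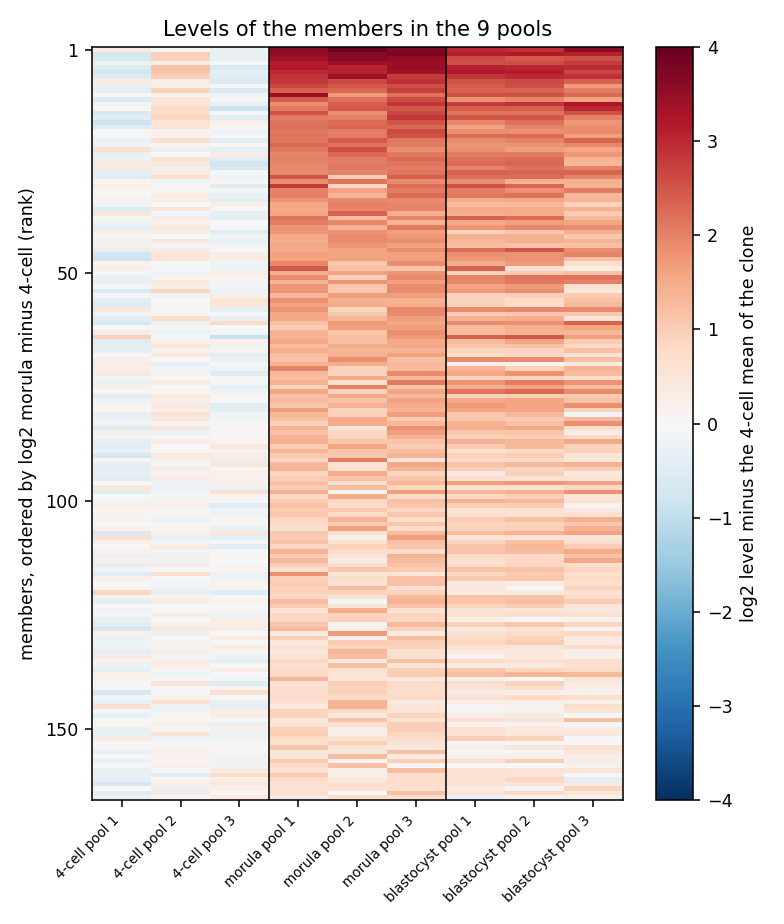
Each row is one of the 165 members, ordered by its log2 morula level minus its log2 4-cell level, and each column is a pool. Colour gives the log2 level of the pool minus the mean of that clone's 4-cell pools, and the morula and blastocyst columns are red over nearly all rows, strongest in the upper rows, with single pools such as morula pool 2 paler in some rows.

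As a description of how steady the selected pattern was, the levels of the pools were compared clone by clone. All 3 morula pools lay above all 3 pools of 4-cell embryos in 149 members (90.3%), against 18.3% of all clones. All 3 blastocyst pools lay above the 4-cell pools in 134 members (81.2%), against 20.8% of all clones. In a limma fit over the 9 pools, with Benjamini-Hochberg adjustment over all 2052 clones and an adjusted p under 0.05, morulae were called higher than 4-cell embryos in 138 members (83.6%), where 11.7% of all clones were called. Blastocysts were called higher than 4-cell embryos in 118 members (71.5%), where 14.7% of all clones were called. In 114 members both calls were made, and in 23 neither. Nothing is read from these counts, because the members were selected on the same contrasts, which also share the 4-cell pools.

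The same fit called 7 members different between blastocyst and morula, and 330 of all clones. The members' count ran from 0 with median centring (199 of all clones) to 58 with array weights (793 of all clones). Of the 7, 1 was higher in blastocysts (0.606% of the members, against 8.04% of all clones) and 6 were lower (3.64%, against 8.04% of all clones). The one called higher was lcao0041g07, whose log2 level was 0.76 above the morula. This call was not made with the deposited scores, with offset 10, with median centring or with pool number as a block. Nor was it made without morula pool 1 or 2, or with any blastocyst pool left out. Among those called lower, lcap0010e09 and lcao0047f08 were the members closest to the lower limit, and the clone lcao0033d10, among the brightest, lay 0.69 below on the log2 scale. The small number is set by the selection, which left out clones with a later step of 0.6 or more in score.

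The 2 largest score differences between morula and 4-cell embryos belonged to lcao0031h07 and lcao0024a04. The log2 level of lcao0031h07 was 8.00, 7.62 and 7.40 in the 4-cell pools, 11.27, 11.93 and 11.41 in the morula pools and 10.70, 10.58 and 11.24 in the blastocyst pools. Every pool of the later stages lay far above every 4-cell pool. All blastocyst pools lay below all morula pools, but blastocyst pool 3 (11.24) and morula pool 1 (11.27) were nearly equal. The fit did not call blastocysts different from morulae in this clone (limma adjusted p = 0.097). The log2 difference between morula and 4-cell embryos was 3.86 ± 0.26 (SE of the limma fit, 3 pools per stage). Its mean score went from 0.29 to 3.15 and then 2.93.

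The 4-cell spot of such a clone was often too dim to give more than a bound. As a mark of a dim spot, each array's 95th percentile of the 153 spots named XWAB was used, whose purpose neither the labels nor the files state. The clone lcao0031h07 exceeded it on 1 of the 6 arrays of 4-cell embryos and on 6 of 6 at both later stages. Set against the lowest clone signal above that mark, or its own signal where that was higher, it was at least 7.95-fold higher in morulae and at least 4.90-fold higher in blastocysts than in 4-cell embryos.

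The clone lcao0024a04 had log2 levels of 6.76, 8.44 and 7.20 in the 4-cell pools, 10.99, 11.12 and 11.23 in the morula pools and 10.57, 10.65 and 10.56 in the blastocyst pools. Its 4-cell pools were spread widely, with pool 2 highest, while the later pools lay close together. The difference between morula and 4-cell embryos was 3.65 ± 0.34 on the log2 scale, and by the bound at least 6.03-fold in morulae and 4.21-fold in blastocysts. It exceeded the XWAB mark on 1 of 6 arrays of 4-cell embryos and on all 12 later arrays.

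The 2 members with the highest mean morula score were lcao0023c10, at 3.76, and lcao0033d10, at 3.57. The log2 level of lcao0023c10 was 8.35, 9.87 and 8.67 in the 4-cell pools, 12.33, 12.61 and 12.51 in the morula pools and 11.58, 11.42 and 11.51 in the blastocyst pools. That of lcao0033d10 was 8.61, 9.14 and 8.74, then 11.97, 12.26 and 12.26, and then 11.41, 11.41 and 11.61. Both were already above the XWAB mark on 4 of the 6 arrays of 4-cell embryos, both reached their highest level in morulae, and in both all blastocyst pools lay below all morula pools. The log2 step down from morula to blastocyst was -0.98 ± 0.32 in lcao0023c10 and -0.69 ± 0.20 in lcao0033d10 (SE). It was called in lcao0033d10 (limma adjusted p = 0.038) but not in lcao0023c10 (limma adjusted p = 0.063).

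Members whose score hardly moved after the morula stage also differed in where they began. Among members with a morula score above the members' median, lcao0022d05 and lcao0025f01 had the smallest later change in score. The log2 level of lcao0022d05 was 8.28, 8.54 and 8.29 in the 4-cell pools, 10.50, 10.41 and 10.91 in the morula pools and 10.60, 10.63 and 10.03 in the blastocyst pools. Its morula and blastocyst pools overlapped, and both stood clear of the 4-cell pools. It exceeded the XWAB mark on 1 of 6 arrays of 4-cell embryos and on all later ones, and by the bound it was at least 3.75-fold higher in morulae and 3.29-fold higher in blastocysts.

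The clone lcao0025f01 was bright from the start, with log2 levels of 9.91, 10.46 and 10.41 in the 4-cell pools. Its levels were 11.75, 11.63 and 11.64 in the morula pools and 11.15, 11.13 and 11.44 in the blastocyst pools. It exceeded the XWAB mark on 6 of 6 arrays at each stage. Its score was nearly equal in morulae (3.19) and blastocysts (3.20), yet every blastocyst pool lay below every morula pool on the log2 scale, which shows how the score and the log2 level can differ. The fit did not call this log2 difference (limma adjusted p = 0.211).

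**Figure D3:**
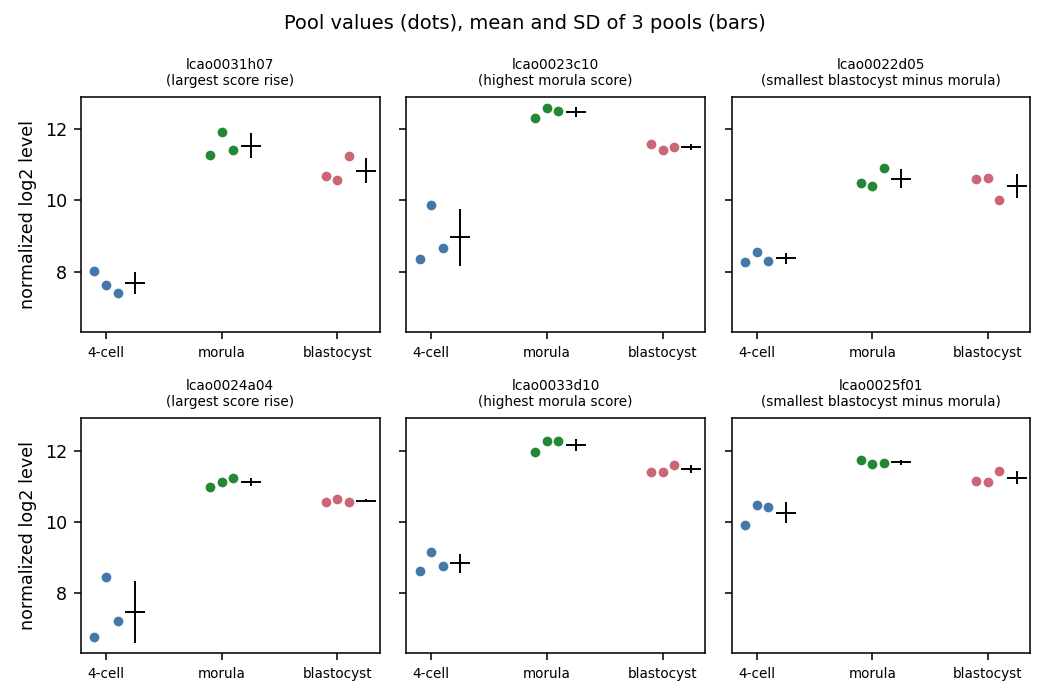
Log2 levels of 6 members in each of the 9 pools, with a panel per clone, dots for pools 1 to 3 from left to right, a horizontal bar for the mean and a vertical bar for the SD of the 3 pools of a stage. The later pools stand above the 4-cell pools in all 6 panels, the blastocyst pools of lcao0023c10 and lcao0033d10 sit below their morula pools, and lcao0025f01 starts from 4-cell levels of 9.91 to 10.46.

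Among all clones on an array, the members were near the middle in 4-cell embryos and in the upper part later. The median member's raw intensity stood between percentiles 55.9 and 67.7 of the clones on the 6 arrays of 4-cell embryos. It stood between percentiles 85.2 and 88.3 on the morula arrays and between 83.7 and 86.6 on the blastocyst arrays. The ratio of the members' median raw intensity to that of all clones was 1.06 to 1.4 on 4-cell arrays, 2.59 to 5.65 on morula arrays and 2.39 to 5.67 on blastocyst arrays. The percentiles at the later stages did not overlap with those of 4-cell embryos on any array.

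Against the XWAB mark, most members were dim in 4-cell embryos, as were most clones. The share of members above the mark ran from 6.67% to 21.2% over the 4-cell arrays, where all clones gave 10.2% to 14.7%. The members' share was below that of all clones on each aRNA array of this stage (6.67% against 10.2% in pool 3) and above it on each PCR array (21.2% against 10.3% in pool 2). It ran from 53.9% to 72.1% over the morula arrays, where all clones gave 13.2% to 25.5%, and from 44.8% to 55.8% over the blastocyst arrays, where all clones gave 12.8% to 16.3%. On the 4-cell arrays 136 members (82.4%) passed the mark on at most 1 of 6, against 84.8% of all clones, and 114 of these members on none.

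Many members stayed dim at every stage. At the morula stage 63 members (38.2%, against 8.38% of all clones) passed the mark on 6 of 6 arrays and 53 (32.1%, against 79.6%) on at most 1. In blastocysts 62 members (37.6%, against 8.48% of all clones) passed it on 6 of 6 and 71 (43%, against 82.3%) on at most 1. The full change, from at most 1 of the 4-cell arrays to every morula and blastocyst array, was made by 27 members. A further 49 members passed the mark on at most 1 array at each stage, 18 of them on 0 of 18, so their stage pattern lies within signals that XWAB spots also gave. All later arrays were passed by 55 members. These patterns over the stages were not counted over all clones, and the selection itself required a higher morula than 4-cell score.

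**Figure D4:**
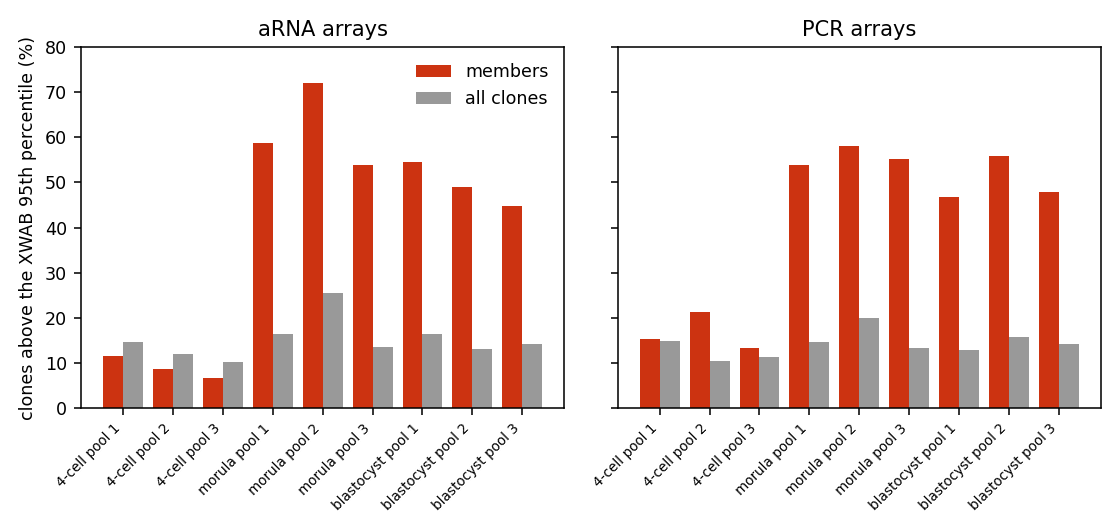
Bars give, for each array, the percentage of the 165 members (red) and of all 2052 clones (grey) whose raw intensity exceeded the 95th percentile of the XWAB spots of that array, with aRNA arrays on the left and PCR arrays on the right. In the 4-cell pools the members lie below all clones on the 3 aRNA arrays and above them on the 3 PCR arrays, most in pool 2 (21.2% against 10.3%), and they stand at 44.8% to 72.1% in the later pools.

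Because each pool was amplified by both methods, the pattern can be read separately on each. The score difference between morula and 4-cell embryos was at least 0.6 in 145 members on the aRNA arrays, in 147 on the PCR arrays and in 127 on both, and it was above 0 on both in 164. Applied to the aRNA arrays alone, both limits were met by 171 clones, of which 128 were members. Applied to the PCR arrays alone, they were met by 192 clones, of which 131 were members. On each method by itself 107 members met both limits, and 13 met them on neither and only in the mean of both.

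Every morula array lay above every 4-cell array in 137 members on aRNA (83%, against 17% of all clones) and in 129 members on PCR (78.2%, against 13.7%). Both held for 112 members (67.9%), against 9.06% of all clones. For blastocyst against 4-cell arrays, both held for 96 members (58.2%), against 11.3% of all clones. These counts again describe the selection, since the selection used the arrays of both methods.

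Whether a member gave a different level by PCR than by aRNA is a question the selection did not touch, since it averaged over both. A limma test was run on the 9 within-pool differences, from values normalised over all 18 arrays. At an adjusted p under 0.05 the methods differed in 57 members (34.5%), against 19.2% of all clones. The level was higher on PCR in 32 members (19.4%, against 9.26% of all clones) and lower in 25 (15.2%, against 9.94%). The median difference over the members was 0.08 on the log2 scale, with a range of -1.60 to 1.74. This balance rests on the normalisation over all 18 arrays. With quantile normalisation within each amplification 102 members and 1248 of all 2052 clones were called. Only 8 of these 102 members were higher on PCR. Since so many of all clones were called by that scaling, nothing particular to the members is read from it.

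Bright clones were called more often, and the members were bright. Over all clones, split by mean level into 4 bins of equal size, the methods were called different in 2.14% of the lowest bin, 7.8% of the second, 22.4% of the third and 44.4% of the highest. The members numbered 3, 13, 44 and 105 in these bins, with 0, 0, 7 (15.9%) and 50 (47.6%) called. The members' share thus lay below that of all clones in the third bin and slightly above it in the highest, and the part of level in the higher overall share was not tested. Of the 57 called members, 29 differed in the same direction in all 9 pools, and in 16 the difference was over 1 on the log2 scale. Neither count was made over all called clones, so no excess among the members is read from them.

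The member with the largest excess on PCR was lcao0036h08. Its difference between PCR and aRNA ran from 0.74 to 2.99 over the pools and was above 0 in 9 of 9. The mean was 1.74 ± 0.21 on the log2 scale (SE), a 3.33-fold higher level on PCR, with a limma adjusted p of 0.00023. It passed the XWAB mark on 4 of 9 aRNA arrays and 7 of 9 PCR arrays. The next, lcao0049h06, was 1.37 ± 0.23 higher (2.58-fold, limma adjusted p = 0.00178), in 8 of 9 pools.

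In the opposite direction, lcao0030f10 was lower on PCR in all pools, with differences from -2.53 to -0.25. The mean was -1.60 ± 0.17 on the log2 scale, a 3.02-fold higher level on aRNA, with a limma adjusted p of 8.93e-05, and it passed the XWAB mark on 8 of 9 aRNA arrays against 4 of 9 PCR arrays. The only member with the prefix lcal, lcal0001b07, differed by -1.45 ± 0.16 (2.72-fold, limma adjusted p = 0.000126) and was higher on PCR in 0 of 9 pools. The clone lcao0031h07, with the largest score difference between stages, was itself lower on PCR, by -1.15 on the log2 scale. The difference between methods in these clones was several times its standard error.

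**Figure D5:**
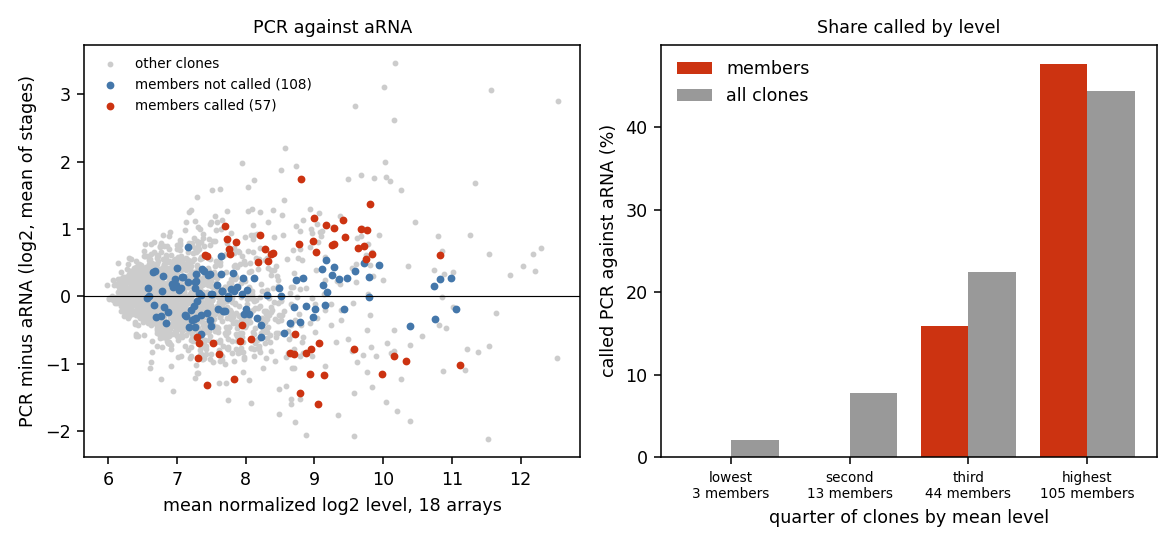
Left, each point is a clone by its mean log2 level over 18 arrays and its log2 difference PCR minus aRNA (mean over stages), with other clones in grey, the 57 members called different in red and the other 108 in blue, and the members lie on both sides of 0 between -1.60 and 1.74. Right, bars give the percentage called different among members (red) and all clones (grey) in each of the 4 bins of mean level, reaching 47.6% and 44.4% in the highest.

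The size of the step between 4-cell embryos and morulae was then compared between the methods. In the limma F test of stage by amplification, 0 members and 0% of all clones had an adjusted p under 0.05, and the lowest adjusted p was 0.0774 over all clones and 0.32 among the members. At an unadjusted p under 0.05 there were 22 members (13.3%), against 7.21% of all clones. The step was larger on PCR in 64 members, a count that was not made over all clones. The median difference in step (PCR minus aRNA) was -0.18 on the log2 scale (0.006 over all clones), with a median SE of 0.41. In lcap0005g01 even a difference of -2.72 ± 0.61 (SE) was not called, while the median member's own step was 1.24. With 3 pools per stage, the 0 calls therefore do not show that the steps were equal.

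The clone with the most negative difference, lcap0005g01, shows what lay behind such values. Its log2 step between 4-cell embryos and morulae was 2.88 on aRNA and 0.16 on PCR, a difference of -2.72 ± 0.61 (SE, limma adjusted p = 0.19). On aRNA its score was -0.28, 0.33 and -0.85 in the 4-cell pools and 1.91, 1.65 and 2.23 in the morula pools, with no overlap. On PCR it was 1.33, 0.06 and 0.78 in the 4-cell pools and 1.60, 0.32 and 1.37 in the morula pools, and the stages overlapped. In blastocysts both methods gave high scores, 2.03, 2.08 and 1.80 on aRNA and 1.56, 1.53 and 1.70 on PCR.

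The clone lcap0021e08 was next, with a step of 1.76 on aRNA and -0.46 on PCR (difference -2.22 ± 0.65, limma adjusted p = 0.459). A single array stood out in it, the PCR array of 4-cell pool 3, with a score of 1.81 against 0.09 and -0.11 in the other 4-cell pools. The largest differences toward PCR were in lcao0042f03, with steps of 0.13 on aRNA and 1.57 on PCR (difference 1.44 ± 0.53, limma adjusted p = 0.523), and in lcap0012d11, with 0.10 and 1.45 (difference 1.35 ± 0.46, limma adjusted p = 0.522). None of these 4 passed the test. In each of them the mean of both methods carried the clone over the limit although 1 method gave little or no step.

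The arrays carry a code of 4, 5 or 6 in their labels, whose meaning the labels do not give, and each code holds 1 pool of each stage. In a limma F test over the codes, which is independent of the stage means, 0 members and 0% of all clones had an adjusted p under 0.05, the lowest adjusted p being 0.266. At an unadjusted p under 0.05 there were 20 members (12.1%), against 10.7% of all clones. The median deviation of the members from their stage mean was -0.08 for code 4, 0.11 for code 5 and 0.01 for code 6, on the log2 scale. Over all clones these medians were -0.011, -0.001 and -0.003. With only 1 pool of each stage per code, the 0 calls do not show that the codes were alike. With the scaling by array medians in place of quantiles, 76 members and 340 of all clones were called for the code. With the code as a block, 49 members and 358 of all clones were called between PCR and aRNA.

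Spots lie close together on the filters, so the signal of a bright neighbour was read beside that of each member. An adjacent spot at least 4 times as bright was present for 59 members (35.8%), against 64.5% of all clones. In 56 of them that spot was itself a clone, and 44 of these neighbours (78.6%, against 60.6% over all clones) also had a higher morula than 4-cell score, 32 of them by at least 0.6. The brightest neighbour was another member in 28 cases, and 93 members (56.4%) lay next to a member, against 40.7% of all clones. The part of neighbouring signal in these 59 members was not tested.

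The other 106 members had no adjacent spot at least 4 times as bright. A bright member is less likely to have such a neighbour, so the stage difference was not compared between the members with and without one. PCR and aRNA were called different in 45 of the 106 (42.5%), against 29.4% of the 728 clones without such a neighbour. Bright clones were called more often, and level was not matched in this comparison, so no excess among the members is read from it. Of the 4 clones whose step differed most between the methods, lcap0021e08, lcao0042f03 and lcap0012d11 had an adjacent spot 11.3, 33.8 and 5.05 times as bright, and lcap0005g01 had none brighter than itself (0.471 times).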

How the data were processed

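Spot intensities are the authors' AGScan readings with a fixed spot size, per the file headers, deposited on a linear scale with no background column, 2304 spots per array. Median raw clone intensity ran from 28 to 386 over the 18 arrays, and the number of pools limits the precision. The deposited score has column means of 0 and SDs of 0.940 and correlates with the log2 raw intensity of its array at r of 0.9965 or more, while the labels and files state neither its log base nor how the authors made it. That table has 0 columns of other samples, and 0 pairs of arrays hold identical values. Names were cut to 11 characters without dots, names starting with lca were kept as clones, and repeated names were averaged.

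The members and lists were chosen with earlier results of these data known. Named clones were at most 2 per list: the largest score difference, the highest morula score, the smallest later change among bright members, the extreme differences between amplifications in level and in step, and the nearest to each limit. For the array code the rule named called clones, and there were none. Markers of cell types listed for the study were not testable without gene names.

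Log2 levels were computed from the deposited intensities with limma 3.58.1 in R 4.3.3: normexp with offset 50 over all spots, log2, then quantile normalization of clone spots, within each amplification for stage and array code and over all 18 arrays for PCR against aRNA. Fits used lmFit and eBayes on pool means or within-pool differences, with Benjamini-Hochberg adjustment over 2052 clones at 0.05, and were tested on simulated data. Pools were treated as separate batches of embryos, since the labels list the embryos or females of each pool separately. Alternatives were median centring, no background correction, offset 10, leaving out the dimmest 25% of clones, the scores in place of intensities, array weights, blocks for code or pool number, each pool left out, and other limits. Figures were drawn with matplotlib 3.10.9, and tables handled with pandas 2.3.3.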

Additional observations from a re-analysis of the deposited data

How the results depend on the processing

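Of 139 alternative values for 8 results, 122 stayed within 1.5 times the value reported and 17 did not. The 57 members called between PCR and aRNA became 102, only 8 of them higher on PCR, with quantile normalization within each amplification. That scaling called 1248 of all clones. With a pool left out 45 to 58 members and 274 to 452 of all clones were called, against 394 of all clones with every pool. The call of stage by amplification stayed at 0 members, except 1 member (4 of all clones) without 4-cell replicate 2 (range 0 to 1 with a pool left out). The array code, 0 in the report and with each pool left out, gave 76 members and 340 of all clones with median centring. For morula against 4-cell embryos 138 became 72 with median centring, and 118 to 139 with a pool left out. Over all clones, calls in either direction went from 437 to 155 with median centring, and were 331 to 446 with a pool left out. The 7 members called between blastocyst and morula became 0 with median centring, 4 with no background correction, 2 with offset 10, 58 with array weights (12 higher in blastocysts), 12 in a fit of both stages alone and 1 to 9 with a pool left out. Over all clones 330 were called for these stages, 199 with median centring and 793 with array weights. The count over all clones was 321 with no background correction, 320 with offset 10 and 401 in the fit of both stages alone. It was 234 to 362 with a pool left out. For blastocyst against 4-cell embryos the count was 101 to 124 members with a pool left out, and 475 to 648 of all clones. Recounted by the rule, the set had 156 to 182 members with a pool left out and 145 to 210 under other values, methods or limits. Of the 165 members, 140 to 161 met the limits with a pool left out, 115 of them in every such recount, and 108 with scores scaled to log2 steps. The cause of these shifts was not tested. Same-numbered pools showed no clear pairing: their deviations correlated at -0.204 to 0.201, over 0.1 in 3 of 9 pairs, and for 2 of 9 pools the same-numbered pool was the closest. Pools of the same array code correlated at -0.0114 to 0.237, over 0.1 in 5 of 9 pairs, and were closest for 5 of 9 pools. Pairs of different code correlated at -0.222 to 0.223. With 3 pools per stage, these correlations cannot settle whether pools were paired. With the replicate block, 58, 0, 0, 137, 2 and 116 members were called for PCR against aRNA, stage by amplification, array code, morula against 4-cell, blastocyst against morula and blastocyst against 4-cell. Over all clones these counts were 412, 0, 1, 437, 298 and 579.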

Other observations

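Blastocyst pool 1 was taken at 96 h and the other two at 90 h, and the difference was not tested, since 1 pool was taken at the later time. The pool at 96 h lay above both others in 36 members (21.8%, against 25.6% of all clones) and below both in 45 (27.3%, against 27.8%). The median log2 difference from the mean of the others was 0.02 over the members, with an interquartile range of -0.11 to 0.14.

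The deposited quality value, 0 or 1 per spot with a meaning not given in the sources used here, differed between the stages in the members and in all clones. It was 1 on 6 of 6 arrays in 1 member at the 4-cell stage (0.606%, against 1.95% of all clones), in 60 at the morula stage (36.4%, against 8.24%) and in 43 at the blastocyst stage (26.1%, against 4.73%). It was 1 on at most 1 array in 125 members (75.8%, against 85.6% of all clones), 33 (20%, against 65.9%) and 45 (27.3%, against 71.9%) at these stages.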
